A study of Mus musculus with 48 samples.

Results

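The compounds described here are the ones that the labels of the series put in neither its protective nor its non-protective class. They were chosen by that label alone (class "not used"), which covers 18 of the 48 arrays and protection ratios of 1.02 to 1.38. The 2 MitoPBN arrays and the 2 Z-VAD-FMK arrays were each averaged, which left 16 compounds of the 36 in the series, called intermediate below. The ratio is the submitters' measure of protection, set to 1 in the controls. Neither its assay nor any dose is stated in the sources used here.

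NMDA opens a class of glutamate receptors that let calcium into neurons, and a strong exposure kills the cells by excitotoxicity. Dissociated cortical cultures hold neurons together with glia and with precursor cells that still divide, so their RNA is a mixture. Neurons carry synaptic vesicle proteins and receptors, dividing cells carry the kinases and spindle proteins of mitosis, and ependymal cells carry the genes of motile cilia.

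The cells are labelled as cortical neurons from whole brain and the mice were of the outbred CD-1 stock. Cultured for 7 days, the cells then had 1 h with a compound, 1 h of NMDA in hypotonic medium and 16 h of recovery with the compound. The intermediate group held 7 compounds in water (minocycline, propranolol, interferon-a2b, azathioprine, deprenyl, interferon-b1a and erythropoietin), 5 in ethanol (phenytoin, clofibric acid, simvastatin, mifepristone and nimodipine) and 4 in DMSO (MitoPBN, Decyclubiquinone, Z-VAD-FMK and FK-506). The controls were 5 mock cultures in water and 5 vehicle cultures in DMSO, which were also exposed to NMDA. No ethanol control was analysed here, so ethanol and the 5 compounds in it cannot be told apart. The labels do not name separate cultures or animals, so the p-values measure the spread between these samples, which may be technical. The mechanism label of propranolol and of mifepristone reads receptor agonist, while both are known as receptor antagonists. The second MitoPBN array is named MitoPBN2 in the labels, which leave its relation to the first unstated.

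The median raw signal lay between 36.1 and 124 on the intermediate arrays, the highest with phenytoin, and between 40.7 and 80.1 on the control arrays. The share of probes detected was 26.3% to 36.8% on the intermediate arrays and 29.3% to 38.3% on the control arrays. The array of clofibric acid stood apart, with a median correlation of 0.908 with the other arrays. Among the controls vehicle 1 stood apart, with 763 genes 1 log2 unit or more away from the other 9 controls and outside their range. All 8 chips held both intermediate and control arrays, with 2 control arrays on chips 1 and 2 and 1 on each of the others. Mock controls were on chips 1 to 5 and vehicle controls on chips 1, 2, 6, 7 and 8. Between the 2 kinds of control, solvent and chip can thus hardly be told apart. Controls lay at positions 1 and 2 of their chips, and the intermediate compounds other than azathioprine lay at positions 3 to 6. Differences between the groups and between positions can therefore hardly be told apart.

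The label was checked against markers of neurons and of other cells. Snap25, a neuronal protein of vesicle fusion, averaged 10.42 ± 0.62 (SD, n = 16) in the intermediate group and 9.75 ± 0.65 (SD, n = 10) in the controls, in normalised log2 intensity. Gfap of astrocytes averaged 12.33 and 12.02 in the intermediate group and the controls, Mbp of oligodendrocytes 11.17 and 11.18, and Cx3cr1 of microglia 9.29 and 9.73. All 4 were detected on every control array, so the cultures held RNA of glia as well as of neurons. In such mixed RNA, fewer cells of a type and less RNA per cell cannot be told apart.

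The first question was what the intermediate compounds had in common against the controls. Genes of synapses, glutamate receptors and mature neurons were among those that rose, and genes of DNA synthesis and mitosis among those that fell. Of 17815 probes 1221 passed an adjusted p of 0.05 in limma (6.85%), 592 higher (3.32%) and 629 lower (3.53%), with a median size of 0.50 log2 units. At an unadjusted p under 0.05 there were 4374 (24.6%). With 1 probe per gene, 723 of 9869 genes passed (7.33%), 342 higher (3.47%) and 381 lower (3.86%). No gene had all 16 compounds outside the range of the 10 controls. With chip as a block 1813 probes passed (10.2%), 770 higher (4.32%) and 1043 lower (5.85%), and 1127 of them had passed in the same direction without it.

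These counts moved with the controls, the position on the chip and the scaling. Without vehicle 1 the count was 2249, without vehicle 5 it was 700, and against the vehicle controls alone it was 60. With position as a covariate 245 probes passed, 235 higher and 10 lower, and with each array scaled to the median of all its probes, which set the median difference at -0.17, 41 passed, 1 higher and 40 lower. With that scaling and chip as a block 2554 passed, 160 higher and 2394 lower.

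The largest rise that passed was in Sncb, beta-synuclein of nerve terminals. Its normalised log2 intensity ran from 5.81 (minocycline) over a median of 7.49 to 9.54 (nimodipine) in the intermediate group, against 5.67 over 5.98 to 8.13 in the controls. The groups overlapped, with 5 compounds above every control, and the highest control was vehicle 1, while the next stood at 6.74. The difference was 1.37 log2 units (SE 0.35, adjusted p = 0.0196), or 2.59-fold. The repeat arrays of Z-VAD-FMK stood at 8.80 and 6.37, farther apart than the groups, and those of MitoPBN at 8.32 and 8.04.

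Syp, synaptophysin of the synaptic vesicle membrane, ran from 8.15 over a median of 9.42 to 11.21 in the intermediate group and from 7.84 over 8.32 to 10.12 in the controls (1.13, SE 0.26, adjusted p = 0.0116). Syn2, synapsin II, which tethers vesicles, ran from 7.44 over a median of 9.10 to 10.61 in the intermediate group and from 7.23 over 8.08 to 9.26 in the controls (1.09, SE 0.24, adjusted p = 0.00825). The values in brackets, here and below, are log2 differences of the intermediate group from the controls unless said otherwise. For both genes the groups overlapped, minocycline was the lowest compound, nimodipine the highest, and vehicle 1 the highest control. Other neuronal genes rose with the same upper extremes. They were Neurod2, a transcription factor of excitatory neurons (1.18, adjusted p = 0.0192), Eef1a2, the elongation factor form of mature neurons and muscle (1.14, adjusted p = 0.022), and Chl1, a neural adhesion molecule (1.10, adjusted p = 0.0153).

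The other 4 genes among the 10 largest rises are not known mainly from neurons, and more of the compounds lay above every control for them. Rai1, a chromatin regulator, ran from 6.93 (phenytoin) over a median of 7.51 to 8.24 (clofibric acid) in the intermediate group and from 5.88 over 6.505 to 7.04 in the controls. For Rai1 15 of 16 compounds lay above every control (1.09, SE 0.14, adjusted p = 9.25e-05). Bach1, a repressor of haem and antioxidant genes, had 14 of 16 above every control (1.06, adjusted p = 0.00262), and Gatad2b, a subunit of the NuRD chromatin complex, had 13 (1.08, adjusted p = 0.00109). Uba6, an enzyme that activates ubiquitin, had 12 (1.31, adjusted p = 0.00531), and it was higher on all 8 chips, by 0.77 to 2.77 log2 units. Of those chips, 3 to 8 held 1 control array each.

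For Rai1 and Gatad2b the probes of the gene disagreed. The values above are from the brighter probe, and the other tested probe did not pass for Rai1 (-0.10, adjusted p = 0.572) or for Gatad2b (0.12, adjusted p = 0.616). The other probes of Eef1a2 (0.86, adjusted p = 0.047), Tk1 (-1.08, adjusted p = 0.0109) and Melk (-0.63, adjusted p = 0.00816) passed in the same direction as the named ones. Those of Shcbp1 (-0.35, adjusted p = 0.0598) and Morn5 (-0.72, adjusted p = 0.135) had the same sign and did not pass.

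**Figure D1:**
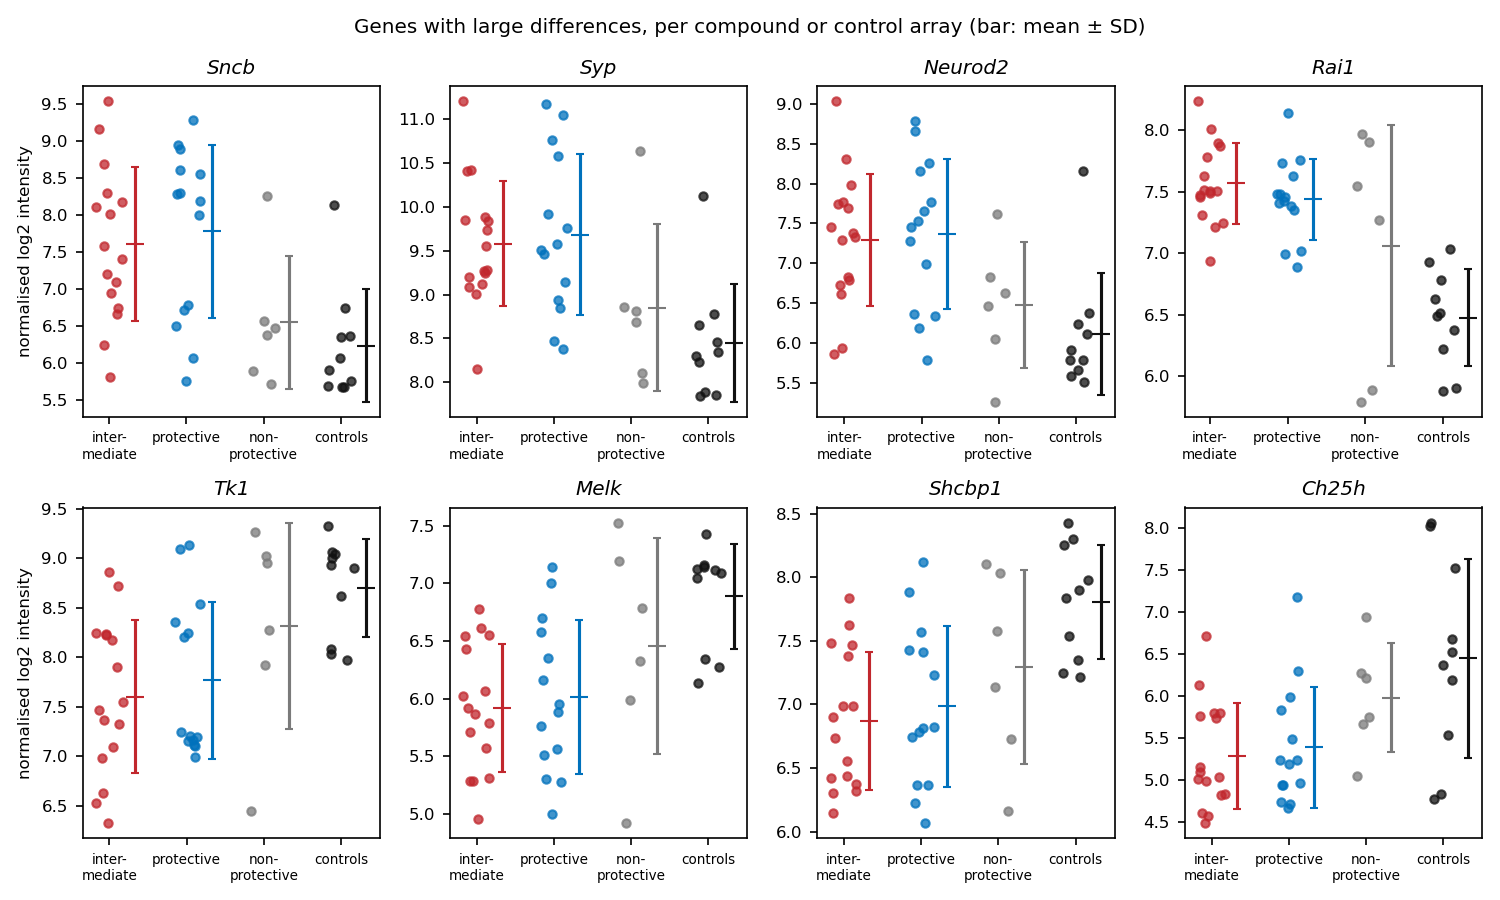
Normalised log2 intensity of 8 genes with large differences, 1 point per compound or control array, in the intermediate (n = 16), protective (n = 14), non-protective (n = 6) and control (n = 10) groups, with the mean and SD of each group. For Rai1 15 of the 16 intermediate compounds lie above the highest control (7.04), while for Sncb, Syp and Neurod2 the control vehicle 1 lies among the intermediate compounds.

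Of the 10 largest falls, 5 are genes of DNA synthesis and division. Tk1, the thymidine kinase of dividing cells, ran from 6.32 (simvastatin) over a median of 7.505 to 8.87 (FK-506) in the intermediate group and from 7.98 over 8.92 to 9.33 in the controls (-1.10, SE 0.26, adjusted p = 0.0123). Melk, a mitotic kinase, ran from 4.96 over a median of 5.89 to 6.78 in the intermediate group and from 6.13 over 7.10 to 7.43 in the controls (-0.97, SE 0.20, adjusted p = 0.00548). Shcbp1, which takes part in cell division, ran from 6.15 over a median of 6.82 to 7.84 in the intermediate group and from 7.21 over 7.87 to 8.43 in the controls (-0.93, SE 0.20, adjusted p = 0.00614). Of the 16 compounds 10 lay below every control for Tk1, 11 for Melk and 11 for Shcbp1, and FK-506 was the highest compound for all 3. Ccne2, cyclin E2 of the entry into DNA synthesis (-0.96, adjusted p = 0.0195), and Mad2l1 of the spindle checkpoint (-0.92, adjusted p = 0.0385) fell too.

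The remaining falls were of other kinds. Ch25h, an enzyme that hydroxylates cholesterol and is known from immune cells, ran from 4.49 over a median of 5.07 to 6.72 in the intermediate group and from 4.78 over 6.45 to 8.07 in the controls (-1.17, SE 0.33, adjusted p = 0.0321). Only 3 compounds lay below every control for Ch25h. Its median in the intermediate group lay at a level where other genes went undetected, such as Ndc80 at 5.61 with phenytoin, so the size is uncertain. Within chips Ch25h was lower on 7 of 8, by as little as -0.002 on chip 8, and 0.36 higher on chip 7. Arhgap22, which restrains the GTPase Rac (-1.10, adjusted p = 0.0148), Palld, palladin of actin bundles (-1.01, adjusted p = 0.0408), Morn5 (-0.93, adjusted p = 0.0435) and A730049H05Rik (-1.02, adjusted p = 0.0477) were the others. Over the alternative settings, left-out samples included, A730049H05Rik kept its call in 12 of 45, Palld in 18 of 45 and Morn5 in 21 of 46. Melk kept its call in 40 of 45.

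The gene lists are set beside the share of all genes called, 3.47% higher and 3.86% lower (4.4% and 6.25% with chip as a block), and the median of all genes, -0.02. Of 17 neuron markers 5 rose and 0 fell, all 17 differences were above 0 and their median was 0.61. The 5 were Elavl3, an RNA-binding protein (0.80, adjusted p = 0.00531), Mapt, the microtubule protein tau (0.81, adjusted p = 0.0168), Syn1, synapsin I (0.97, adjusted p = 0.022), Rbfox3, the antigen NeuN (0.84, adjusted p = 0.0465), and Thy1, a surface protein (0.61, adjusted p = 0.0413). Elavl3 was above every control with 9 compounds and Syn1 with 2. The number of neuron markers called was 11 without vehicle 1, 3 without clofibric acid and nimodipine, and 0 both with position as a covariate and with median scaling over all probes.

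Of 17 synapse genes 4 rose, with a median of 0.54: Sncb, Syp, Syn2 and Sv2a, a vesicle glycoprotein (0.81, adjusted p = 0.0119). Camk2a at -0.05 and Nlgn1 at -0.19 were the 2 synapse genes with differences below 0, and neither passed. Without vehicle 1, 10 synapse genes passed, with position as a covariate 1, and with median scaling over all probes 0. Of 9 glutamate receptor genes 3 that were detected in both groups rose and Grin2a passed as well, with a median of 0.45. Grin2b, the NMDA receptor subunit of young neurons, ran from 7.70 over a median of 8.63 to 9.22 in the intermediate group and from 6.77 over 7.88 to 8.87 in the controls (0.76, adjusted p = 0.0341). The kainate receptor subunits Grik1 (0.74, adjusted p = 0.0168) and Grik5 (0.34, adjusted p = 0.0484) rose as well. Grin2a, another NMDA receptor subunit, passed (adjusted p = 0.0228) with measured means of 5.25 and 4.78 in the intermediate group and the controls, but it was detected on 5 of 18 intermediate arrays and 0 of 10 control arrays, so no fold is given. The number called in this list was 1 with position as a covariate, 0 with median scaling over all probes and 6 without vehicle 1.

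Markers of neuron types gave fewer calls. Neurod2 was the 1 of 8 excitatory markers to pass, and 0 of 7 inhibitory markers passed (median 0.42). The mean over the 7 inhibitory markers lay above every control in 9 of 16 compounds. Gad2, an enzyme of GABA synthesis, stood at 0.52 (adjusted p = 0.066), and Slc32a1, the vesicular GABA transporter, at 0.52 (adjusted p = 0.0737).

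Of 12 cell division genes 9 fell, and 11 with chip as a block, and all 12 differences were below 0, with a median of -0.79. With position as a covariate the number called was 0 and the median -0.42, and with median scaling over all probes 0 passed at a median of -0.99. Aurka, a kinase of the spindle poles, ran from 6.86 over a median of 7.72 to 8.66 in the intermediate group and from 7.72 over 8.79 to 9.18 in the controls (-0.90, adjusted p = 0.0106). Birc5, survivin of the chromosomal passenger complex, ran from 7.79 over a median of 8.34 to 9.62 in the intermediate group and from 8.45 over 9.55 to 9.82 in the controls (-0.85, adjusted p = 0.0136). The groups overlapped, with 8 compounds below every control for Aurka and 9 for Birc5. Plk1, a kinase of mitotic entry (-0.84, adjusted p = 0.0152), and Cdk1, the kinase that drives mitosis (-0.90, adjusted p = 0.0203), fell too. Of 11 genes of the folate cycle and nucleotide synthesis 3 fell, namely Tk1, Tyms, thymidylate synthase (-0.90, adjusted p = 0.00344), and Rrm2, a ribonucleotide reductase subunit (-0.85, adjusted p = 0.0162). The other 8 did not pass, among them Impdh1 of guanine nucleotide synthesis at 0.57 (adjusted p = 0.0515). The number called in this list was 0 with position as a covariate.

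The promoters of the 3 cell division genes with the smallest p are printed because genes of mitosis are known to share 2 promoter elements, and these genes moved together. The elements are the CCAAT box, searched as CCAAT or ATTGG, and the cell cycle homology region, searched as TTTGAA or TTCAAA. The sequences are from RefSeq on build GRCm38.p6 and run from 250 bases before to 50 after the start of the gene on its own strand, with matches in capitals.
Aurka, chr2:172370521-172370820, minus strand: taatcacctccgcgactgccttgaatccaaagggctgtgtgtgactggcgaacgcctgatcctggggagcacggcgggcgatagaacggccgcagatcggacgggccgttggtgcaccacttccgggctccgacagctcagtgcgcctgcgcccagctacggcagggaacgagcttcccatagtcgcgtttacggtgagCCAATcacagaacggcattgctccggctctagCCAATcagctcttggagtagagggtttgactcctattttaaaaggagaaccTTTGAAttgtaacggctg
Birc5, chr11:117848987-117849286, plus strand: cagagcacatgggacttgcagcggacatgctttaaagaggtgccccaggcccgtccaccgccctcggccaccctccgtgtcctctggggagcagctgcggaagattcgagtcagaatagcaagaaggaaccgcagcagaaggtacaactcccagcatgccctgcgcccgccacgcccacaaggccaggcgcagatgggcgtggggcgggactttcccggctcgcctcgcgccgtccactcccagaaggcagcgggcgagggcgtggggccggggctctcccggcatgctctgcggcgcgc
Plk1, chr7:122159185-122159484, plus strand: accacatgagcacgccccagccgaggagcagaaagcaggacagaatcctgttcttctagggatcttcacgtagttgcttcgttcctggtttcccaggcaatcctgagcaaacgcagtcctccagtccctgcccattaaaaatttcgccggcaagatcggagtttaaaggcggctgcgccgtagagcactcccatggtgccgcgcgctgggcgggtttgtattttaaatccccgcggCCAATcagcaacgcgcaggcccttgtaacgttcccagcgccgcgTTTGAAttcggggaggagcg
Aurka held 2 matches to the CCAAT box and 1 to the cell cycle homology region, Plk1 held 1 of each, and Birc5 held 0 of both in this window. Of the 12 measured cell division genes 9 had a promoter in the table, and 7 of these held the CCAAT box, 8 the cell cycle homology region and 7 both. Over all 27025 genes with a promoter there, 41.1%, 20.2% and 7.97% did. A match is a run of letters and no measured site.

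Markers of other cell types were measured beside these groups. All 6 ependymal and motile cilia markers had differences below 0 (median -0.69), and Tekt1, tektin 1 of the ciliary axoneme, fell (-0.86, adjusted p = 0.0458). None of the 6 passed with position as a covariate, with median scaling over all probes or without clofibric acid and nimodipine. Of 7 markers of endothelial, mural and fibroblast cells 1 fell, the endothelial receptor Flt1 (-0.71, adjusted p = 0.0257), with a median of -0.50. None of 7 microglia markers (median -0.29), 11 astrocyte markers (median -0.03) or 8 oligodendrocyte markers (median -0.12) passed. The mean over the cilia markers, taken from the control mean, ran from -1.999 to 0.53 in the intermediate group and from -0.85 to 0.46 in the controls. The mean over the microglia markers ran from -2.85 to 0.53 in the intermediate group and from -1.17 to 0.60 in the controls. The part of these cells in the neuronal and mitotic differences was not tested.

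Stress and metabolic lists held few calls. Of 14 genes of the integrated stress response 13 had differences above 0 (median 0.39), and Vldlr, a lipoprotein receptor, rose (0.65, adjusted p = 0.019). With position as a covariate the median of this list was 0.07 with 0 calls, and with median scaling over all probes there were 0 calls, against 2 without vehicle 1. All 15 SREBP2 targets of cholesterol synthesis had differences above 0 (median 0.26), and Fdps, which makes farnesyl diphosphate, rose (0.58, adjusted p = 0.0301). Their median was 0.02 with 0 calls with position as a covariate, and median scaling over all probes or over the tested probes gave 0 calls as well, against 4 without vehicle 1 and 3 with chip as a block. Single members of other lists rose. Cish, a feedback inhibitor of cytokine receptors (0.73, adjusted p = 0.0354), rose among 6 JAK2-STAT5 targets (median 0.20). Ppargc1a, a coactivator of mitochondrial genes (0.44, adjusted p = 0.00797), rose among 8 cAMP targets (median 0.135). Hk1, a hexokinase (0.38, adjusted p = 0.028), rose among 13 glycolysis and hypoxia genes (median -0.02). In that list the prolyl hydroxylases Egln3 (-0.63, adjusted p = 0.0401) and P4ha1 (-0.33, adjusted p = 0.0466) fell. Cox5a of cytochrome oxidase (0.19, adjusted p = 0.037) rose among 15 oxidative phosphorylation genes (median -0.06), of which only 4 had differences above 0. With position as a covariate these lists held 1 call, among the cAMP targets, and with median scaling over all probes 0. None of 12 regulators of apoptosis and necroptosis (median -0.02), 9 immediate early genes (median 0.05), 15 calcium homeostasis genes (median 0.15) or 20 proteasome genes (median -0.04) passed.

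**Figure D2:**
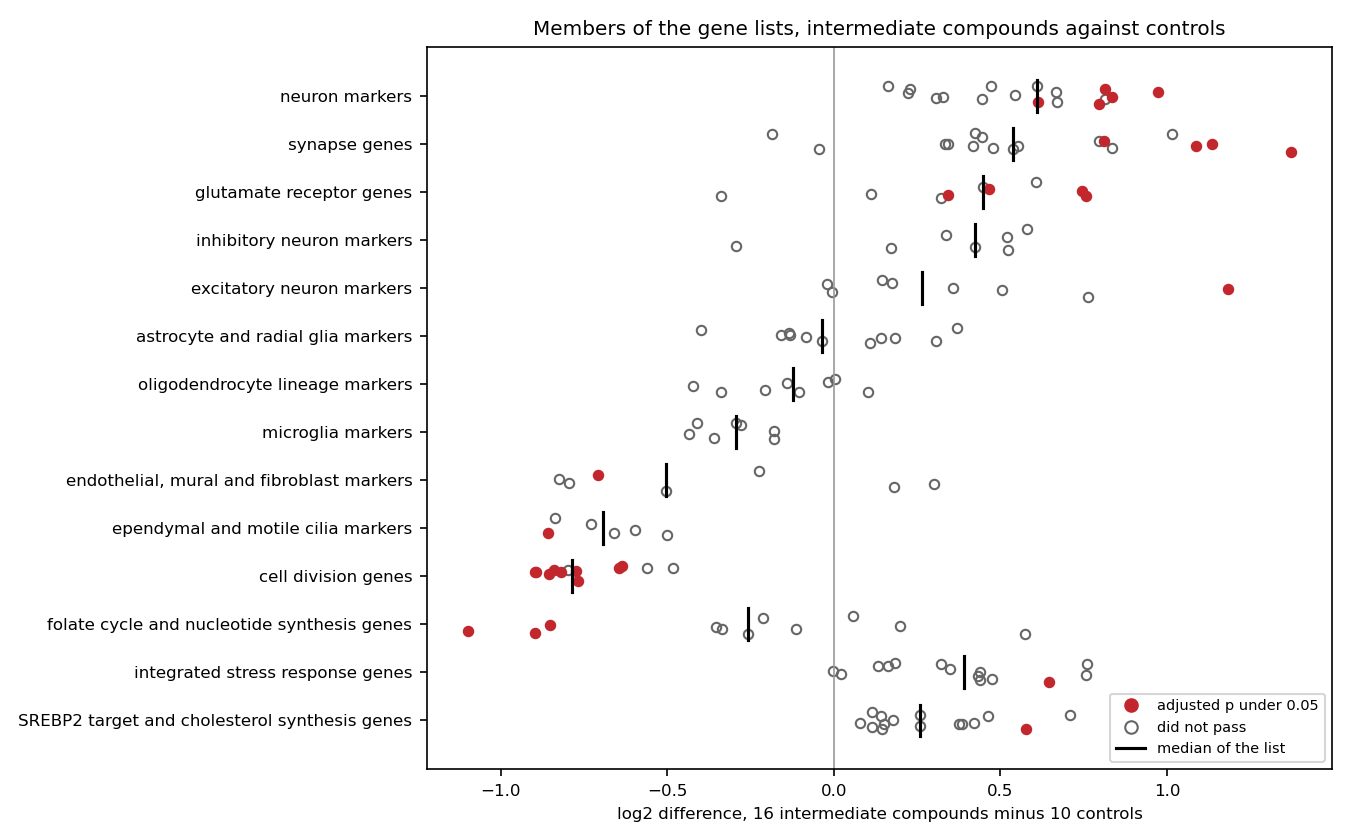
The log2 difference, 16 intermediate compounds minus 10 controls, of each measured member of 14 gene lists, with filled points for an adjusted p under 0.05 in limma, open points for the rest and a bar at the median of each list. The 17 neuron markers all lie above 0 with 5 filled, and the 12 cell division genes all lie below 0 with 9 filled.

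Within chips, the median over the 12 cell division genes was lower in the intermediate group on all 8, by -1.25 to -0.05, and that over the cilia markers by -1.13 to -0.34. Chips 3 to 8 held 1 control array each, and chips 3 and 7 only 1 intermediate array each, a repeat array of MitoPBN and of Z-VAD-FMK. The median over the neuron markers was higher on 7 of 8 chips (-0.33 to 1.12), and the exception was chip 6, whose control is vehicle 1. Over the 36 compounds of the series the slope on position was called at 0 probes in limma, with 1236 at an unadjusted p under 0.05. Its median was 0.01 per position at the probes called higher in the intermediate group and -0.05 at those called lower. That slope covers positions 2 to 6, while 8 of the 10 controls lay at position 1. Compounds at position 2 against those at 3 to 6 gave 0 probes, with medians of -0.05 and 0.02 at the same probes. Position 2 against 1 among the 10 controls gave 0 in limma, with 1375 at an unadjusted p under 0.05. Its medians there were -0.21 and 0.13, and the controls at position 2 were both vehicle cultures. Between the 2 kinds of control, vehicle against mock, 0 probes passed in limma, with 3559 (20%) at an unadjusted p under 0.05, and 812 passed without vehicle 5. These 2 kinds shared only chips 1 and 2. The difference of water compounds from mock, less that of DMSO compounds from vehicle, was called at 0 probes, with 735 at an unadjusted p under 0.05 and a smallest adjusted p of 0.913.

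The next question was whether the intermediate compounds differed from those of the 2 named classes. Against the 14 protective compounds 0 of 17815 probes passed in limma (0%), and 186 (1.04%) had an unadjusted p under 0.05. Sncb averaged 7.60 ± 1.04 (SD, n = 16) in the intermediate group and 7.77 ± 1.17 (SD, n = 14) in the protective class, a difference of -0.17 with a 95% interval of -0.89 to 0.55. Tk1 differed by -0.17 (-0.71 to 0.38) and Rai1 by 0.13 (-0.21 to 0.47). These intervals include 0 and leave room for differences of moderate size. The genes with the smallest p, none of which passed, were Srprb (-0.42), H2-Ke6 (-0.25) and Traf2 (-0.27).

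Against the 6 non-protective compounds 0 probes passed in limma as well, and 1371 (7.7%) had an unadjusted p under 0.05. Sncb averaged 6.54 in the non-protective class, and the intermediate compounds were 1.06 log2 units above it (95% interval 0.12 to 2, adjusted p = 0.636), which did not pass. Eef1a2 stood 0.92 above it (0.10 to 1.73), and Uba6 0.13 (-0.56 to 0.83). The genes with the smallest p, none of which passed, were Nol6 (0.39), Tmem141 (-0.52) and Mis18a (-0.58). In a fit of all 4 groups, in which the 3 comparisons share their controls, 1142 probes were called for the 16 intermediate compounds, 867 for the 14 protective and 3 for the 6 non-protective ones. A group of 6 gives less power than 16 or 14, so these counts cannot show whether the non-protective compounds resembled the controls. Single genes differed in this. Sncb averaged 6.23 in the controls, near its non-protective mean. Uba6 averaged 9.86 in the controls and 11.2 in the intermediate group, and its non-protective mean lay near the latter.

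A further question was whether levels followed the protection ratio within the 16 compounds. The slope on the log2 ratio was called at 0 of 17815 probes in limma, with 2520 (14.1%) at an unadjusted p under 0.05 and a smallest adjusted p of 0.12. Sgsh, a lysosomal sulphatase (-3.52 log2 units per unit of log2 ratio), Cdc16 (-3.31) and Kifbp (-5.52) had the smallest p and did not pass. The count turned on Z-VAD-FMK, without which 663 probes passed. With chip as a block 0 passed and 148 had an unadjusted p under 0.05. The median slope over all probes went from 0.28 to -0.02 with that block. The log2 ratios ran only from 0.03 to 0.46, so a slope per unit reaches beyond the measured range.

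Each compound was then set alone against the controls, with 1 culture for all but the 2 repeated compounds, so no test was made. The number of genes lying 1 log2 unit or more off the mean of the controls, and beyond their range, was 15 with deprenyl, 292.5 as a median and 1560 with nimodipine. The controls, each against the other 9, gave 13, 66 and 763 as lowest, median and highest. The highest counts, with nimodipine (1560), clofibric acid (1377), mifepristone (751) and simvastatin (530), were all of compounds in ethanol. Phenytoin, also in ethanol, had 282. Solvent and compound cannot be told apart in these counts. The order of the compounds changed with the scaling and the chip. With median scaling over all probes the highest count was 3912 with mifepristone and the lowest 30 with Decyclubiquinone, and with chip means subtracted the highest was 1023 with clofibric acid and the lowest 12 with Z-VAD-FMK. Besides that of mifepristone, the counts that median scaling moved by over 1.5 times were those of nimodipine (3040), Z-VAD-FMK (1335), MitoPBN (972), FK-506 (944), minocycline (808), phenytoin (615) and deprenyl (57). Besides that of Z-VAD-FMK, the counts moved as far with chip means subtracted were those of nimodipine (994), phenytoin (521), simvastatin (348), mifepristone (195), FK-506 (58) and erythropoietin (37). The counts given below for single compounds are without these changes.

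The SD was larger over the compounds than over the controls at 78.8% of genes, with medians of 0.33 and 0.25. The mean over the 342 genes called higher ran from 0.22 (minocycline) to 0.96 (nimodipine), and was 0.51 in vehicle 1. As these genes were called on the same arrays, that range only describes how the compounds shared the difference.

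**Figure D3:**
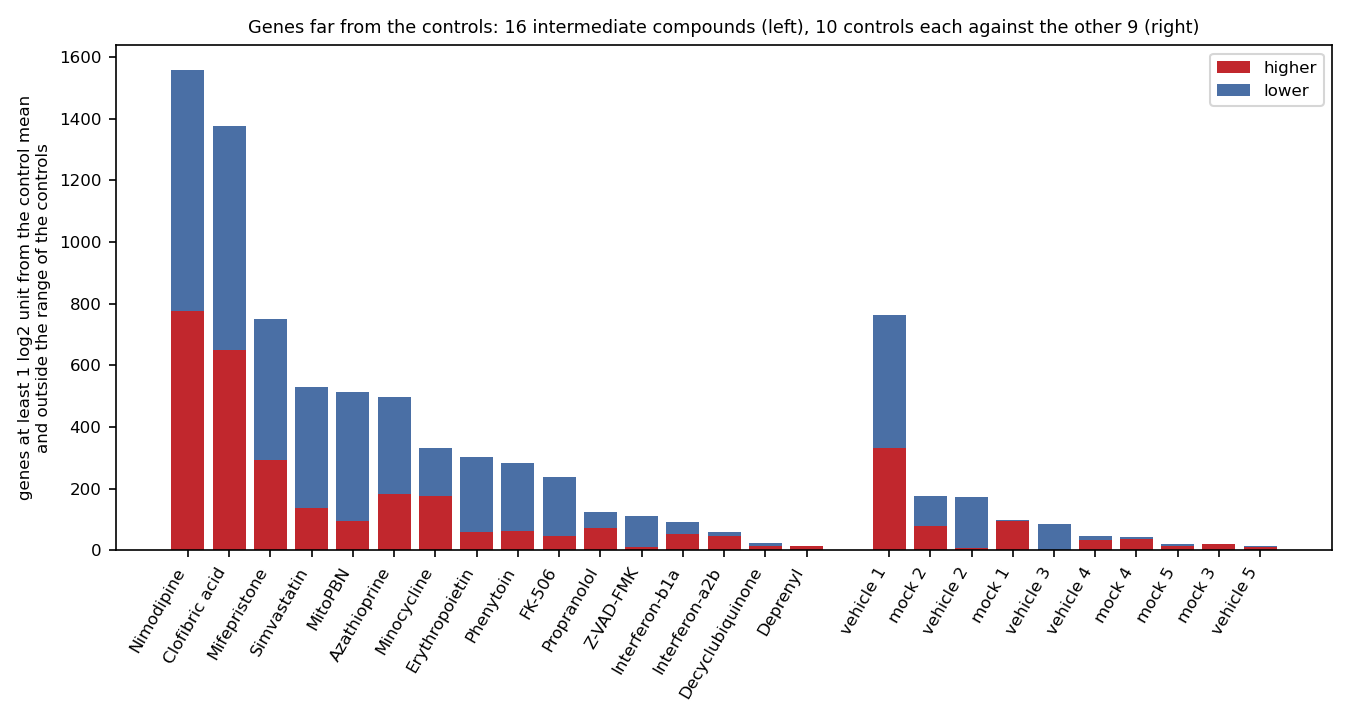
Number of genes 1 log2 unit or more off the control mean and beyond the control range, higher and lower stacked, for the 16 intermediate compounds (left) and for each of the 10 controls against the other 9 (right). Nimodipine (1560) and clofibric acid (1377), both in ethanol, stand highest among the compounds and deprenyl (15) lowest. That order changes with median scaling or with chip means subtracted. The control vehicle 1 (763) stands highest among the controls.

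Nimodipine, a blocker of L-type calcium channels, had 1560 genes (15.8%) past that rule. All 12 cell division genes lay below every control, as 25.7% of all genes did, with a median of -1.80. Of 17 synapse genes 16 lay above every control (median 1.82), as did 15 of 17 neuron markers (median 1.57) and 27.1% of all genes. Lrfn5, a synaptic adhesion molecule, stood at 9.36 with nimodipine against 5.16 to 8.37 in the controls. Pbk, a mitotic kinase, and Plk4, the kinase of centriole duplication, were not well above background with nimodipine and were at least 4.16-fold and 3.13-fold lower.

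Mifepristone, simvastatin, MitoPBN, azathioprine and phenytoin showed both shifts at smaller size. The cell division genes had medians of -1.40 with mifepristone, -1.49 with simvastatin, -1.26 with MitoPBN, -1.10 with azathioprine and -0.96 with phenytoin. In that order 11, 10, 9, 7 and 7 of the 12 lay below every control, as 19.8%, 14.4%, 20.5%, 16.7% and 17.8% of all genes did. Together with nimodipine, these were the 6 compounds whose mean over the cilia markers lay below every control. Their neuron markers had medians of 0.99, 0.86, 0.998, 0.75 and 0.66 in the same order. Nimodipine, mifepristone, simvastatin and phenytoin were in ethanol, so solvent and compound cannot be told apart for them.

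The median over the cell division genes lay nearest the controls with FK-506 and deprenyl, and that over the neuron markers was lowest with minocycline and FK-506. The neuron markers had a median of 0.08 and the cell division genes of -0.06 with FK-506, an inhibitor of calcineurin. Deprenyl, an inhibitor of monoamine oxidase B, had 0.35 and 0.07 for the same lists. Minocycline, a tetracycline antibiotic, had -0.23 and -0.53.

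**Figure D4:**
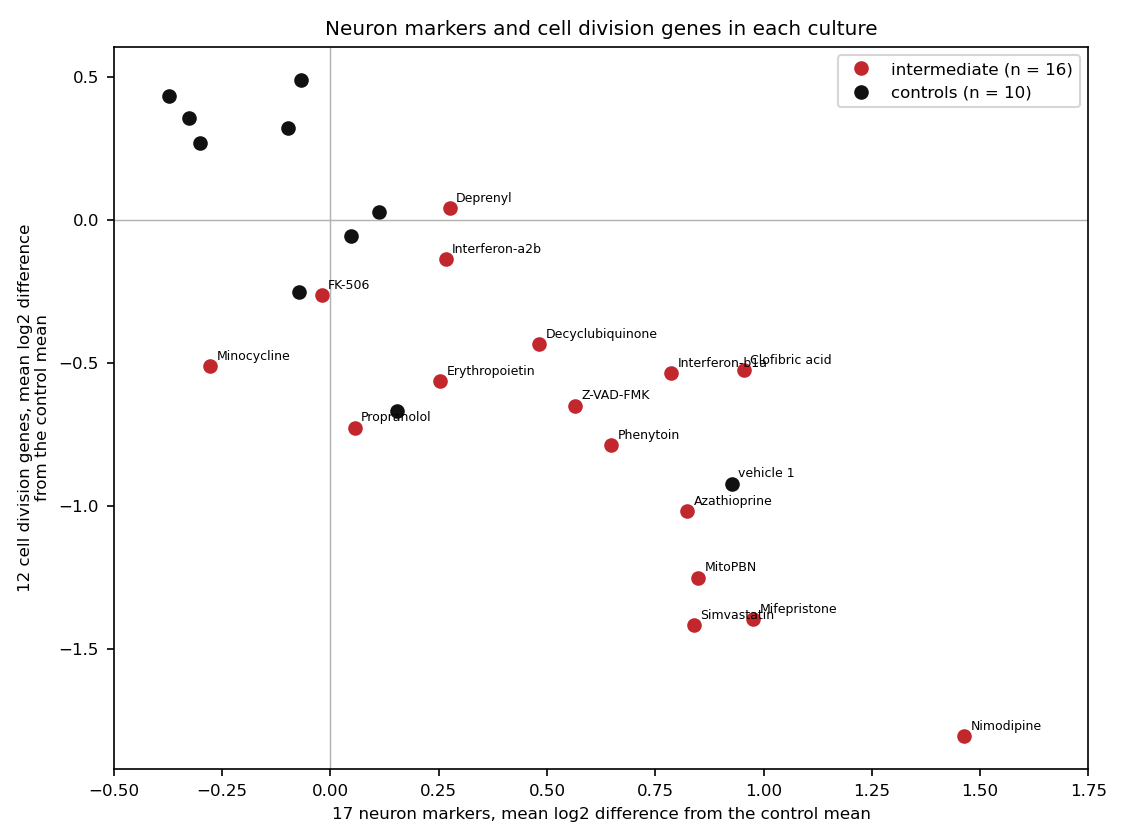
Mean log2 difference from the control mean over 17 neuron markers (horizontal) and 12 cell division genes (vertical), 1 point for each of 16 intermediate compounds and 10 controls. Nimodipine lies at 1.46 and -1.80, and the control vehicle 1 lies among the compounds at 0.93 and -0.92.

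The interferon-stimulated genes, antiviral genes that type I interferons induce through JAK kinases and STAT factors, held 0 calls of 12 over the 16 compounds (median -0.14). With interferon-a2b, which had 59 genes (0.598%) past the rule of size, all 12 lay above every control (median 1.68), as 4.8% of all genes did. With interferon-b1a, which had 92 genes (0.932%), 11 of 12 did (median 1.22), as 6.73% of all genes did. Oasl2, an antiviral protein of the OAS family, stood at 8.32 with interferon-a2b and 7.95 with interferon-b1a, against 4.66 to 6.31 in the controls. Mx2, an antiviral GTPase, stood at 7.10 and 7.30 with these compounds, against 4.70 to 5.41 in the controls. Of the 10 control arrays 3 detected Oasl2 and 2 detected Mx2.

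FK-506, with 239 genes (2.42%), had 9 of the 12 above every control (median 0.88), as 17% of all genes did. The chemokine Ccl5 stood at 8.18 with FK-506 against 4.60 to 5.79 in the controls, where 2 of 10 arrays detected it. The acute phase protein Saa3 stood at 8.07 against 5.02 to 6.17 in the controls, where 9 of 10 arrays detected it. With nimodipine and MitoPBN, 11 and 10 of the 12 lay below every control, as 25.7% and 20.5% of all genes did.

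Minocycline, with 331 genes (3.35%), was marked by the integrated stress response, in which kinases of the initiation factor eIF2 raise ATF4 and its targets. All 14 genes lay above every control (median 1.90), as 14.9% of all genes did. Trib3, a target of ATF4, stood at 10.72 with minocycline against 5.84 to 8.32 in the controls. Ddit3, the factor CHOP, stood at 11.53 against 7.56 to 9.14, and Chac1, which degrades glutathione, at 11.11 against 7.14 to 9.12. Of 8 oligodendrocyte markers 6 lay below every control (median -0.93), as 16.6% of all genes did.

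Simvastatin, with 530 genes (5.37%), inhibits HMG-CoA reductase, and cells short of sterol activate SREBP2. All 15 SREBP2 targets lay above every control (median 1.02), as 18.6% of all genes did. Mvd of the mevalonate pathway stood at 8.79 with simvastatin against 5.62 to 7.66 in the controls, and Lss, lanosterol synthase, at 8.56 against 6.71 to 7.20. Acta2, smooth muscle actin, stood at 8.70 with simvastatin against 10.90 to 13.61 in the controls. Ccn5, a matricellular protein, was at least 9.52-fold lower and Sri, sorcin, at least 8.78-fold lower.

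Erythropoietin, with 303 genes (3.07%), signals through JAK2 and STAT5, and of 6 targets of that pathway 2 lay above every control and 1 below. The 2 were Bcl2l1 (0.66) and Osm (0.44), detected on 6 of 10 control arrays, and 12.9% of all genes lay above and 10.4% below. Of 12 Nrf2 targets, genes of the antioxidant response, 8 lay above every control (median 1.24). Srxn1, sulfiredoxin, stood at 11.73 with erythropoietin against 8.40 to 9.79 in the controls, and Hmox1, haem oxygenase, at 12.05 against 9.997 to 10.56. Of the 15 SREBP2 targets 13 lay above every control as well (median 0.76). Erythropoietin and simvastatin were the intermediate compounds of chip 6. Against that chip's own control, vehicle 1, the median of the SREBP2 targets over both was 0.54.

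Clofibric acid, with 1377 genes (14%), activates PPARalpha, a receptor that controls fatty acid oxidation. Of 10 PPARalpha targets 4 lay above every control, as 20.9% of all genes did, among them Pdk4 (1.47), and 2 lay below, as 32.1% of all genes did. All 7 microglia markers and 7 of 8 oligodendrocyte markers lay below every control, with medians of -2.86 and -2.27. Cx3cr1 of microglia was not well above background and was at least 17.3-fold lower. Sox10 and Olig2, factors of the oligodendrocyte lineage, were likewise at least 17.5-fold and 10.1-fold lower. Without clofibric acid and nimodipine the shared comparison called 1073 probes.

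Azathioprine, a purine antimetabolite, had 496 genes (5.03%), and Tk1 (-1.61), Rrm1 (-1.22) and Tyms (-1.12) were among the 5 of 11 folate and nucleotide genes below every control, as 16.7% of all genes were. Mifepristone, a blocker of the glucocorticoid and progesterone receptors, had 751 genes (7.61%). Of 11 glucocorticoid targets 3 lay below every control with mifepristone (19.8% of all genes), among them the clock gene Per1, which was not well above background and at least 1.19-fold lower, and 2 above (19.3% of all genes), among them Klf9 (0.55). Fkbp5, a chaperone and well known target of the receptor, lay within the controls at -0.24.

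MitoPBN had 513 genes (5.2%), led by Uba6 (2.27) among those higher and Ccn5 (-2.59) among those lower. Phenytoin, a blocker of sodium channels, had 282 genes (2.86%), among them Prmt8, a neuronal methyltransferase (1.76), detected on 5 of 10 control arrays. Propranolol, a blocker of beta-adrenergic receptors, had 123 genes (1.25%), led by Sulf1 (1.84), detected on 7 of 10 control arrays, and 1 of 8 cAMP targets lay above every control (11.4% of all genes) and 1 below (12.1% of all genes). Z-VAD-FMK, an inhibitor of caspases, had 110 genes (1.11%), 10 higher, led by Nr1d2, a repressor of the clock (1.48), and 100 lower. Among the lower ones Rnase4 was not well above background and was at least 2.86-fold lower. Decyclubiquinone had 25 genes (0.253%), 15 higher, led by Gatad2b (1.63), Ddx6 (1.59) and Uba6 (1.44), and 10 lower, led by Cbwd1 (-1.69). Deprenyl had 15 genes (0.152%), all higher, led by Efs (3.82) and Psmc1 of the proteasome (2.51), the second detected on 5 of 10 control arrays.

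**Figure D5:**
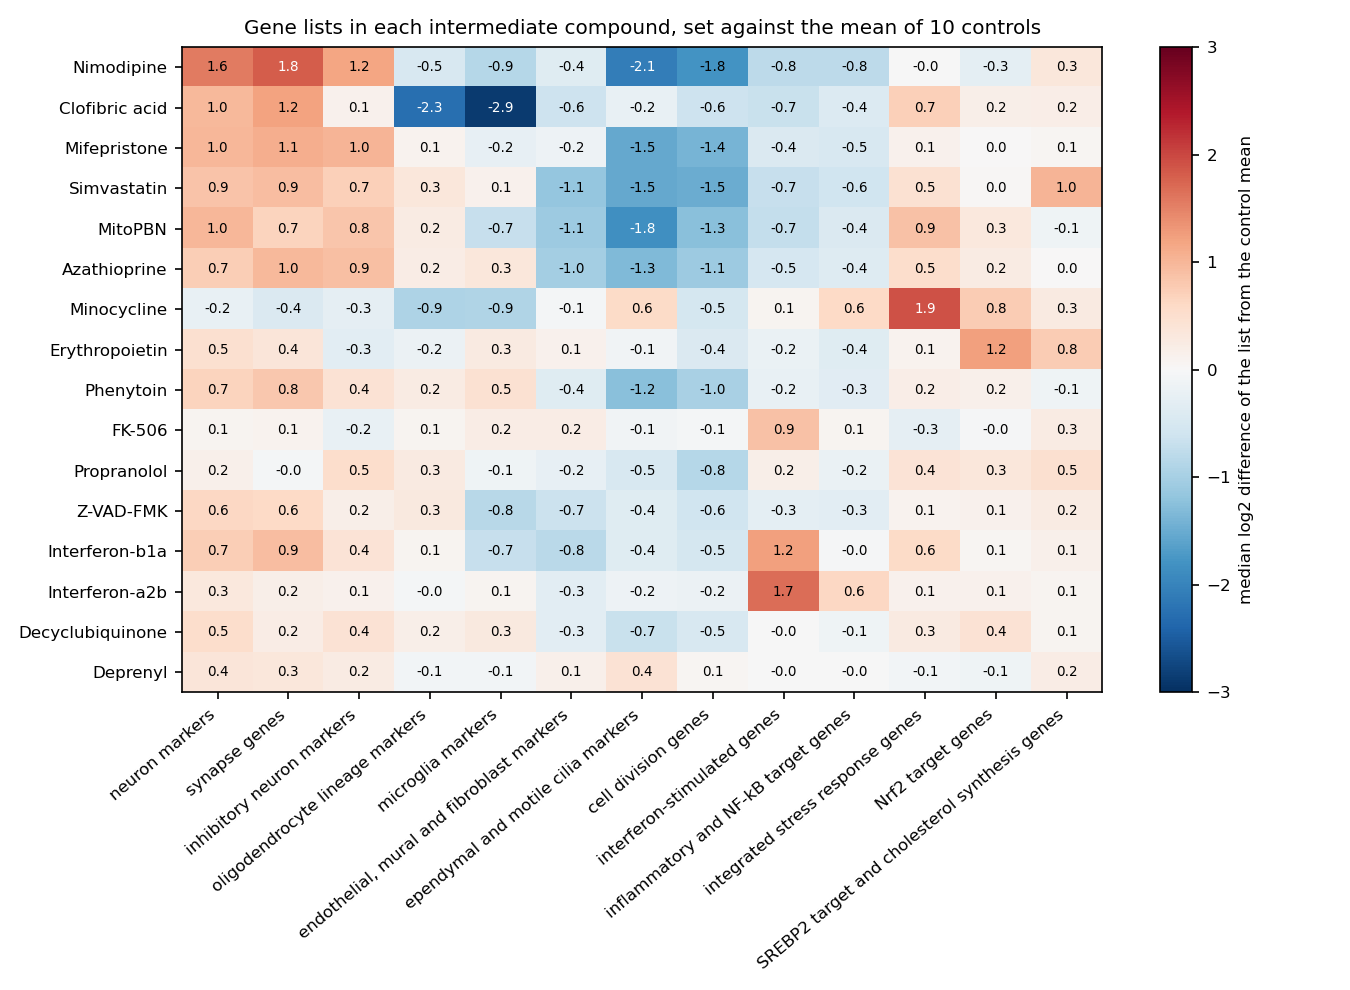
Median log2 difference of 13 gene lists (columns) from the mean of 10 controls in each of the 16 intermediate compounds (rows, from nimodipine with the most genes far from the controls to deprenyl with the fewest). The integrated stress response stands at 1.90 with minocycline, the interferon-stimulated genes at 1.68 with interferon-a2b, and the microglia markers at -2.86 with clofibric acid.

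Among 6696 genes detected on all 28 arrays, Efs, an adaptor of Src kinases, spread most over the compounds, with an SD of 1.45 over the compounds and 0.25 over the controls. It stood at 12.75 with interferon-b1a, at 12.62 with deprenyl and between 7.85 and 8.93 with the other 14, against 8.45 to 9.12 in the controls. Both high cultures were on chip 5, as was the protective compound Moxalactam at 13.78, while azathioprine at 8.63, Rolipram at 8.09 and the mock control at 8.51 on that chip were not high. Gpr17 of oligodendrocyte precursors followed (SD 1.26 over the compounds and 0.62 over the controls), lowest with clofibric acid. Trib3 had an SD of 1.13 over the compounds and 0.76 over the controls. Among the 10 genes with the largest SD, Ddx3x was one for which the controls spread as widely (1.16 over the compounds and 1.15 over the controls). The same held about for Mmp12 (1.21 and 1.33), Wfdc2 (1.13 and 1.17), Ntrk2 (1.10 and 1.04), Vps26b (1.06 and 0.985) and Stmn1 (1.06 and 1.04).

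The repeat arrays gave a scale for these differences. The median absolute difference over genes was 0.18 log2 units between the 2 MitoPBN arrays and 0.25 between the 2 Z-VAD-FMK arrays. Over 151 pairs of arrays of different compounds its median was 0.30 (0.13 to 0.56), and over 45 pairs of controls 0.26 (0.14 to 0.39). Of the 151 pairs, 5 were closer than the MitoPBN pair and 32 closer than the Z-VAD-FMK pair.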

How the data were processed

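RNA of each culture was measured on an Illumina mouse bead array. Per the file headers, the authors deposited for each probe a signal intensity and a detection p-value. The submitters' processing notes name BeadStudio, with no version. The deposited series matrix held the same intensity values less a constant for each array (32.3 to 111), apart from 8 values. From the intensities and detection p-values, background was corrected by normexp (offset 16) and arrays were quantile normalised, which gave log2 values (the authors' deposited intensity is linear). Probes detected (p under 0.01) on at least 6 of 48 arrays were kept, 17815 of 46632. Repeat arrays were averaged, and limma 3.58.1 in R 4.3.3 (with the package data.table, version 1.17.8) tested each comparison, with Benjamini-Hochberg adjustment over all 17815 probes and a threshold of 0.05. A gene was represented by its brightest probe. Symbols came from the platform annotation (a single symbol for 29976 probes, several for 10, none for 16646). Named genes came from the 10 largest rises and 10 largest falls past the threshold, the 10 smallest p where fewer than 5 passed, up to 4 list members of smallest p, the 3 largest rises and falls per compound with members of the list of its known target, and the 10 largest SDs. Other list members named (Snap25, Gfap, Mbp, Cx3cr1, Camk2a, Nlgn1, Thy1, Impdh1 and lists beyond a compound's target) were chosen after their values were seen. Members, lists and tests were chosen with earlier results of these data known. A compound's gene was not well above background where its detection p was 0.01 or more, and its bound sets the control mean against the higher of its own value and the lowest detected signal of that array. On simulated data with the probes of the comparison with controls, 100% of changes of 2 log2 units, 94% of 1 and 60.6% of 0.5 were called. The simulated noise was independent between probes and arrays, without the shared shifts of chips or single cultures, so recovery in the real data may differ. The number of arrays limits the precision.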

Additional observations from a re-analysis of the deposited data

Results flagged for a closer look

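Single controls stood apart from the other 4 of their kind in 9 of the 112 groups examined, where chance gives about 1 in 20, or 5.6. In 8 of the 9 the control was vehicle 1. It stood at 8.133 for Sncb (others 5.67 to 6.36), at 8.153 for Neurod2, at 7.617 for Chl1 and at 6.317 for Arhgap22 (others 7.36 to 7.65), in log2 intensity. Its mean difference from the controls was 1.139 over the synapse genes, 0.6562 over the neuropeptide and secretory granule genes and -0.2975 over the folate and nucleotide genes. It also had 763 genes far from the other controls, against 13 to 172 in the other vehicle cultures. In these genes and lists vehicle 1 lay on the side of the intermediate compounds. Mock 2 stood at -0.2482 over the heat shock genes, below the other mock cultures. Technical and other origins of these values were not tested.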

How the results depend on the processing

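The 1221 probes called between intermediate compounds and controls became 2159 with chip as a random block, 711 with no detection filter, 543 against mock controls only, 245 with position as a covariate, 60 against vehicle controls only, 41 with median scaling over all probes, 9 for water compounds against mock and 0 for DMSO compounds against vehicle in limma (1554 at an unadjusted p under 0.05). Leaving out 1 sample gave 700 (without vehicle 5) to 2249 (without vehicle 1). With chip as a block the 1813 became 1021 with no detection filter and 215 with position. The other alternatives stayed within 1.5 times. The slope on the ratio gave 0 to 663 when 1 compound was left out, the highest without Z-VAD-FMK, and vehicle against mock 0 to 812, the highest without vehicle 5. With the replicate number as a block, vehicle against mock gave 0 (3187 at an unadjusted p under 0.05). The deviations of same-numbered controls correlated at -0.142 to 0.148. These few correlations cannot show whether the numbers mark paired cultures. The median number of genes far from the controls was 292.5 per compound, 604.5 with median scaling and 143.5 with chip means subtracted. The share of genes with the larger SD over compounds was 78.8%, 80.2% with median scaling, 63.4% without clofibric acid and nimodipine and 84.3% without vehicle 1. The 20 named genes kept their direction under all settings run, and 3 kept their call under median scaling, 4 with position, 4 against vehicle controls only, and 0 both for water compounds against mock and for DMSO compounds against vehicle. Median scaling over the tested probes, the 2 left-out compounds and the chip-block settings were chosen after seeing the data. Signal near background limits the dim probes. Causes were not tested.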
